A study of Mus musculus with 12 samples.

Results

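The genes described here are the nuclear genes whose mouse symbols name a subunit of the oxidative phosphorylation complexes: Nduf genes for complex I, Sdh genes for complex II, Uqcr genes for complex III, Cox genes of the families 4 to 8 for complex IV and Atp5 genes for complex V. They were taken by this name pattern and not gene by gene from their values, except that a gene needed at least 10 counts over all libraries. The set itself was chosen with earlier results of these data known. Of the 23336 symbols counted, 85 matched, and 80 of them were kept and tested: 36 of complex I, 4 of complex II, 8 of complex III, 15 of complex IV and 17 of complex V. The 5 left out were Ndufs5 with 0 counts, Cox8c with 1, Cox6a2 with 4, Cox8b with 8 and Cox7b2 with 9, while the lowest kept were Cox4i2 with 87, Cox7a1 with 89 and Ndufb2 with 164. The pattern also took in some genes that are not subunits in the strict sense. Cox4nb, listed by the annotation as Emc8, belongs to a membrane protein insertion complex of the endoplasmic reticulum, Cox7a2l is a factor of respiratory supercomplexes, and Atp5s and Atp5sl are not among the subunits of the enzyme core. Ndufa4 carries a complex I name but is now placed with complex IV. Exons of 25 of the 85 overlap another counted gene, and 4 (Atp5c1, Atp5k, Atp5l and Uqcrh) have a pseudogene named after them, so that their counts could be split or shared.

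Gene counts came from mouse embryonic stem cells (ESCs) of 3 lines, all labelled as strain C57BL/6: a female line labelled RlimKO, the female WT line Pgk12.1 and the male WT line E14. Each line was taken differentiated, after 3 days as embryoid bodies in a bacterial dish with no LIF and then 6 days of culture at 7.5% oxygen, and undifferentiated, in ESC medium containing LIF, the cytokine that maintains mouse stem cells. There were 2 libraries for each of the 6 groups. The study set the lines against each other to follow X chromosome inactivation (XCI), and here the same libraries were read for the respiratory chain. The RlimKO genotype and the male sex were each represented by a single line, so that genotype or sex and line cannot be told apart. Whether the 2 libraries of a group stem from different cultures is not in the labels, and the p-values therefore reflect a spread that may be technical only. LIF, culture form and time changed together between the states, an oxygen level is labelled for the differentiated cells alone, and the parts of these cannot be told apart. The numbers in the library names of undifferentiated cells also form a run of their own. What the numbers stand for is not in the labels, so that number and state cannot be told apart either.

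Oxidative phosphorylation passes electrons from NADH and succinate through complexes I to IV to oxygen, and complex V uses the proton gradient so built to make ATP. Most subunits are encoded in the nucleus and a few core ones in mitochondrial DNA, which were not analysed here. Mouse ESCs are known for active glycolysis beside a working respiratory chain, and some complex IV subunits exist as alternative forms that depend on tissue or oxygen.

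The libraries held 2011919 to 5401940 counts in genes, of which the ribosomal RNA precursor Rn45s took 6.36% to 67.7%, and 5436 to 22472 counts in the 80 subunit genes. The Rlim gene stood at 290.1 and 299 CPM (counts scaled to equal library size, with TMM factors) in differentiated RlimKO cells, against 258 and 266 CPM in differentiated WT females, and at 160.0 and 150.0 CPM in undifferentiated RlimKO cells, against 267 and 282 CPM in undifferentiated WT females. Counts were thus present under the RlimKO label, and the part of the gene deleted is not in the labels. All 7 stem cell markers fell on differentiation (summed level 45.9 to 182 CPM in differentiated libraries, against 1520 to 1776 CPM in undifferentiated ones), and 6 of 7 smooth muscle and fibroblast markers rose (3839 to 10808 CPM in differentiated libraries, against 2.92 to 82.8 CPM in undifferentiated ones). The one that did not rise was Thy1. It had 2 and 2 counts in differentiated RlimKO cells, 13 and 3 in WT females and 0 and 5 in males. Before differentiation it had 1 and 2, 5 and 5, and 11 and 20 counts in the same lines. Of the other marker lists tested, all 6 genes of visceral and primitive endoderm rose, 5 of 6 of cardiac muscle, 4 of 5 of blood and endothelium, both of trophoblast, the 1 of skeletal muscle and 1 of 4 of neuroectoderm, while the remaining 1, 1 and 3 genes of the cardiac, blood and neuroectoderm lists fell and no sperm marker had enough counts to test. The stem cell label thus matched its markers, and the differentiated libraries held RNA of several lineages. The libraries of the differentiated male pair differed most from each other, with a chi-square of 24.8 per degree of freedom over genes outside Rn45s and Lars2, which took large and varying shares of the reads, against 1.85 to 2.32 in the other pairs. Replicate 2 of that pair had 247 CPM of the collagen gene Col3a1 and 127 CPM of the cardiac myosin gene Myh7, against 2776 and 27.8 CPM in replicate 1. Library names carry consecutive numbers in the other pairs but not in this one, and the labels do not say why. In bulk RNA, fewer cells of a type and less RNA per cell cannot be told apart.

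The promoter windows of 5 of the genes are shown because their levels were lower after differentiation in all 3 lines or, for Cox7a2l, higher over the lines. Uqcrc1 was added after its values had been seen, and CCAAT after the windows had been read. Each window runs from 250 bases before to 50 bases after the RefSeq start (build GRCm38.p6), 5′ to 3′ along the gene, with capitals marking matches on either strand to letters known as parts of the sites of factors of respiratory genes: TGCGCA (NRF1), CCGGAAG (GABPA), AAGATGG (YY1), AAGGTCA (ERR) and CCAAT (NF-Y).
Cox7b, chrX:106015450-106015749, plus strand: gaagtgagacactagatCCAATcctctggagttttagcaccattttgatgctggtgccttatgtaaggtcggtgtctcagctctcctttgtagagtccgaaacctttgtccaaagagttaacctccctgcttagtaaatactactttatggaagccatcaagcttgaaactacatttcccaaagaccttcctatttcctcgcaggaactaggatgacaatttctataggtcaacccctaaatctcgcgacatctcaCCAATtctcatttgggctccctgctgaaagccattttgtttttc
Cox7c, chr13:86046746-86047045, minus strand: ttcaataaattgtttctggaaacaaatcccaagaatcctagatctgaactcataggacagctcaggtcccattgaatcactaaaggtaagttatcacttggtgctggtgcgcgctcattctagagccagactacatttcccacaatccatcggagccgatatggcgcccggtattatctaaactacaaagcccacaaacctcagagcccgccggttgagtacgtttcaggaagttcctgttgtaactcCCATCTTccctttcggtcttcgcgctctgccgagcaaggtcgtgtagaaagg
Atp5b, chr10:128083057-128083356, plus strand: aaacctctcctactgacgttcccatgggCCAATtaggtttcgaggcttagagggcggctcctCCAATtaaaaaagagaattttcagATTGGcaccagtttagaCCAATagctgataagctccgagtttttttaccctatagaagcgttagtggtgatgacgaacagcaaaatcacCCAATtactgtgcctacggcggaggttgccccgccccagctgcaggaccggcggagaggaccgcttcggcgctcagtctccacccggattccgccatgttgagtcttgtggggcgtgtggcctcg
Uqcrc1, chr9:108936398-108936697, plus strand: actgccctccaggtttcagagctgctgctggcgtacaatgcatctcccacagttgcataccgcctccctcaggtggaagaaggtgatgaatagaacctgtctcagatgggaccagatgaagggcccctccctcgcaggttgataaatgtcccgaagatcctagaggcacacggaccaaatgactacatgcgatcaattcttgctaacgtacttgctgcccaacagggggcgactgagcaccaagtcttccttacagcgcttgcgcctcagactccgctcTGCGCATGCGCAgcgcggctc
Cox7a2l, chr17:83514284-83514583, minus strand: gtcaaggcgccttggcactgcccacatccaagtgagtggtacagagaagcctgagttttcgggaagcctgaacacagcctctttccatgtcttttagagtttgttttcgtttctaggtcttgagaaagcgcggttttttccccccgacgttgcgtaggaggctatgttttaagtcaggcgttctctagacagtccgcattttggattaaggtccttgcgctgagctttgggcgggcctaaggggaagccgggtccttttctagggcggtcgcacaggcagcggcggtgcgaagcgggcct
A window was found for 63 of the 80 genes. NRF1 letters were in 25.4% of these windows, against 8.06% of 27025 windows, a single window for each symbol that had any. Those 27025 include genes not tested here, and windows of expressed genes alone were not compared. GABPA letters were in 23.8% against 9.12%, YY1 letters in 14.3% against 6.48%, ERR letters in 11.1% against 4.66%, and CCAAT in 44.4% against 37.9%. Among the subunit genes themselves, NRF1 letters were in 27.8% of the 36 windows of genes that fell on differentiation and in 22.2% of the 27 others. GABPA letters were in 19.4% of the 36 and 29.6% of the 27, YY1 letters in 11.1% and 18.5%, ERR letters in 13.9% and 7.41%, and CCAAT in 44.4% of both. In the windows shown, Cox7b held CCAAT near its upstream end and again past its start, Cox7c had YY1 letters at its start, Atp5b had 5 CCAAT matches upstream of its start, Uqcrc1 had a pair of adjoining NRF1 matches past its start, and Cox7a2l had none of these letters. A match describes letters in the window and not binding.

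Most subunit genes of the respiratory chain were lower after differentiation. Averaged over the 3 lines, 49 of the 80 subunit genes were lower in differentiated cells at an adjusted p (edgeR quasi-likelihood F test with Benjamini-Hochberg adjustment over 12814 genes) below 0.05, 2 (Cox4i2 and Cox7a2l) were higher and 29 were not called, where 32.5% of all tested genes were lower and 37.2% higher. The median log2 fold change of the 80 was -0.40, against 0.07 over all tested genes, and 73 were negative. The share called lower thus lay above that of all genes and the share called higher far below it, in a comparison in which 69.8% of all tested genes were called. In 19 subunit genes every differentiated library was below every undifferentiated one (17.7% of all tested genes), and in 2, Cox4i2 and Ndufs3, every one was above (22% of all tested genes).

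The summed level of the 80 genes was 2888 and 3052 CPM in differentiated RlimKO cells, 2925 and 2989 CPM in differentiated WT females and 2437 and 2414 CPM in differentiated males. In undifferentiated cells it was 4775 and 5019 CPM in RlimKO, 4109 and 4329 CPM in WT females and 4172 and 4101 CPM in males. Differentiated libraries were all below undifferentiated ones, with a ratio of the means of 0.630. The ratio was 0.699 without Atp5a1 and Atp5b, which hold a large share of this sum. As a share of all counts outside Rn45s and Lars2, the genes took up 0.444% to 0.573% in differentiated libraries, against 0.806% to 1.01% in undifferentiated ones. Many of these genes are short, and other short genes were lower as well: 494 other tested genes of under 1000 bases had a median of -0.38, against 0.10 for 12117 longer ones. Subunit genes of under 1000 bases (39) had a median of -0.41 and those of 1000 bases or more (41) had one of -0.40. The part of length in the result was not tested beyond these values.

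**Figure D1:**
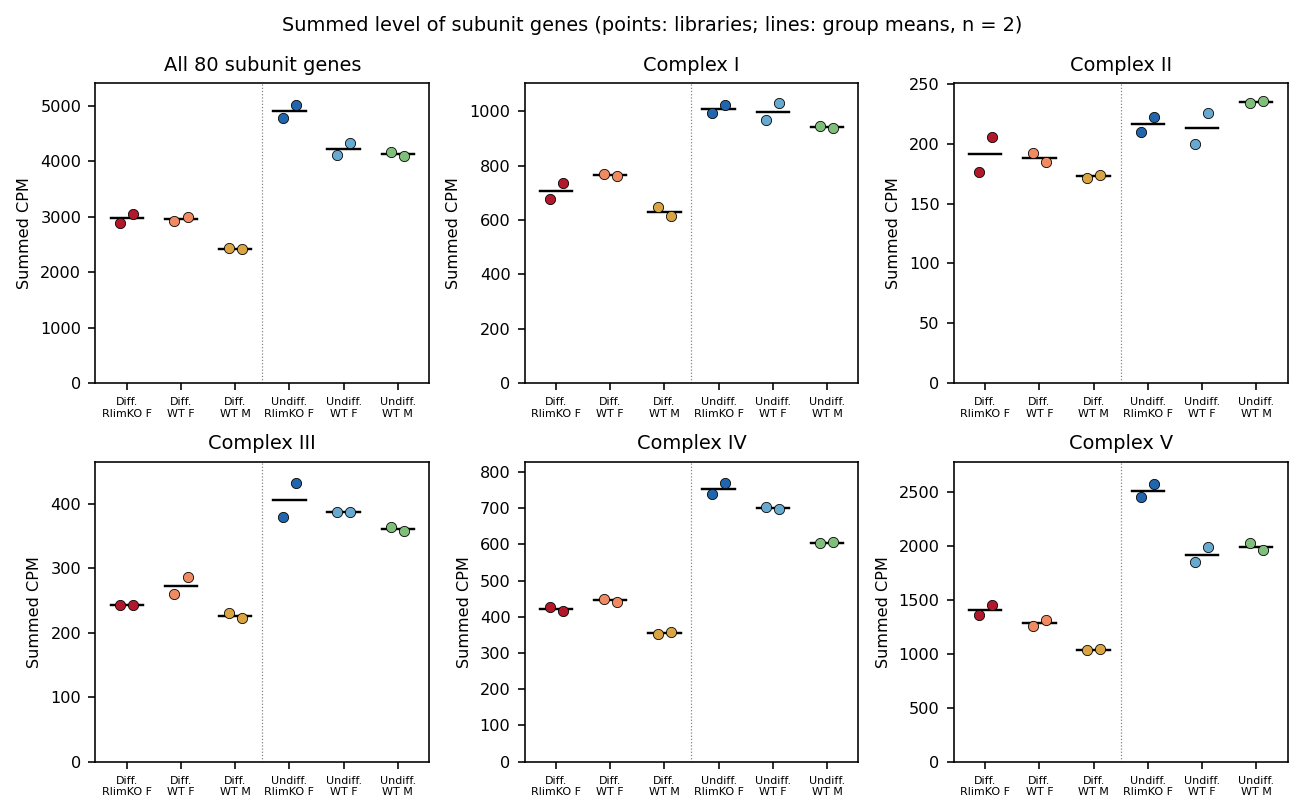
Summed level (vertical axis, CPM) of all 80 subunit genes and of the genes of each complex, in each library (points) and as group means (lines, n = 2); differentiated groups stand left of the dotted line. For all genes the differentiated libraries lay between 2414 and 3052 CPM and the undifferentiated ones between 4101 and 5019 CPM, and only in complex II did the states overlap.

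By complex, the share of genes that fell was highest in complexes IV and III. Genes were counted by name, so that complex IV includes Cox4nb, which fell, and Cox7a2l, which rose. Complex I likewise includes Ndufa4, which fell. Set against the 32.5% of all tested genes that fell and the 37.2% that rose, the counts were as follows. Of complex I, the NADH dehydrogenase, 17 of 36 genes fell and 0 rose (median log2 fold change -0.39). Of complex II, succinate dehydrogenase, 2 of 4 fell and 0 rose (-0.20). Of complex III, the cytochrome bc1 complex, 6 of 8 fell and 0 rose (-0.87). Of complex IV, cytochrome c oxidase, 12 of 15 fell and 2 rose (-0.79), and of complex V, the ATP synthase, 12 of 17 fell and 0 rose (-0.40). The summed levels were 614 to 768 CPM in differentiated libraries against 938 to 1031 CPM in undifferentiated ones for complex I, 222 to 287 against 358 to 433 CPM for complex III, 353 to 449 against 602 to 768 CPM for complex IV, and 1033 to 1448 against 1850.3 to 2572 CPM for complex V. These ranges did not overlap. Complex II stood nearest to no change, at 172 to 206 CPM in differentiated libraries against 200.0 to 235 CPM in undifferentiated ones, which overlapped. Differences between complexes were not tested.

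**Figure D2:**
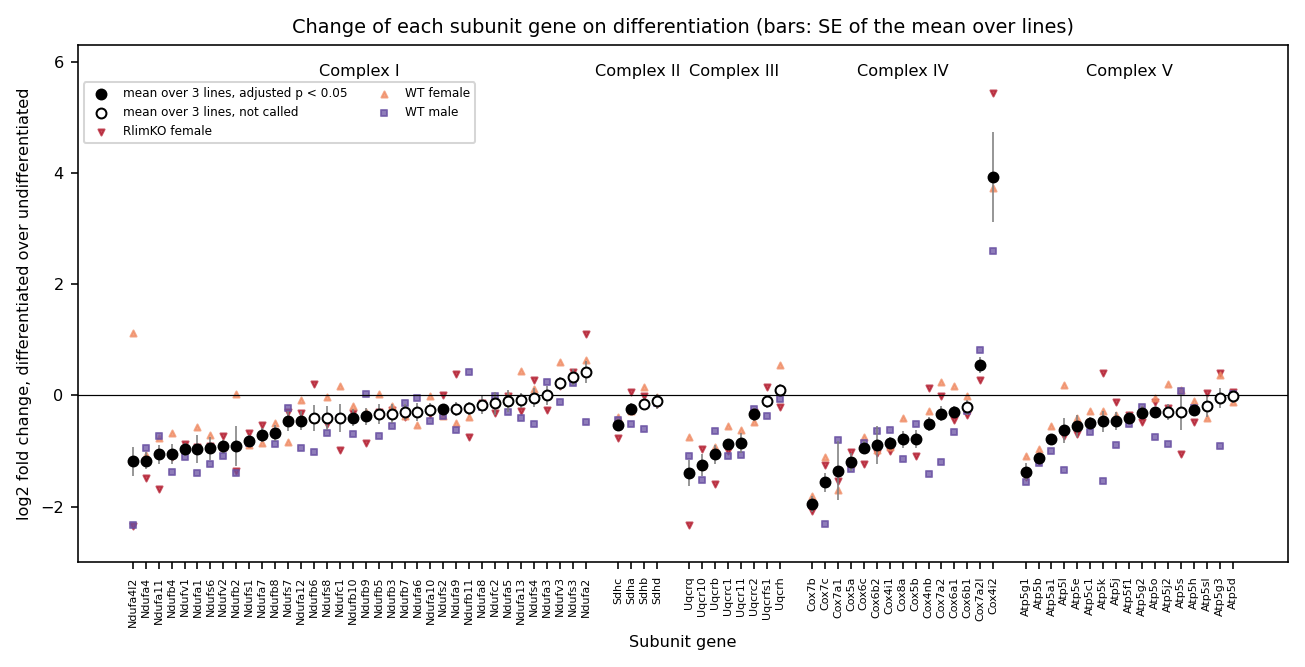
Log2 fold change (vertical axis, differentiated over undifferentiated) of each of the 80 subunit genes (horizontal axis, by complex), as the mean over the 3 lines with its SE (circles, filled where the edgeR adjusted p was below 0.05) and in each line (coloured marks). Most genes lay below 0 (73 of 80), and Cox4i2 and Cox7a2l were the called ones above it; the mark of Cox4i2 in RlimKO cells rests on 0 counts before differentiation and is no measure of size.

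In complex I the core genes of the NADH-oxidising module fell in all 3 lines. Ndufs1, its iron-sulfur subunit, ranged from 31.9 to 38.5 CPM (median 34.7) in differentiated libraries, against 55.7 to 68.3 CPM (median 62.2) in undifferentiated ones. The log2 fold change was -0.81 ± 0.10 (SE; edgeR adjusted p = 3.32e-06). Ndufv1, which binds the flavin, ranged from 20.7 to 33.9 CPM (median 28.6), against 49.4 to 59.1 CPM (median 55.5), and its iron-sulfur partner Ndufv2 from 30.0 to 40.8 CPM (median 33.1), against 54.3 to 80.3 CPM (median 63.0). The log2 fold changes were -0.96 ± 0.12 (edgeR adjusted p = 3.82e-06) and -0.91 ± 0.11 (edgeR adjusted p = 4.02e-06). The states did not overlap in any of these 3 genes, which were chosen for print after their values had been seen. Ndufa11, an accessory subunit of the membrane arm, stood at 9.03 to 18.7 CPM in differentiated libraries, against 20.9 to 36.8 CPM in undifferentiated ones (-1.06 ± 0.17, edgeR adjusted p = 5.07e-05). In RlimKO cells its change was -1.69 ± 0.31, and each of the 12 leave-one-out fits (each without 1 library) kept the call, while in WT females (-0.77) 6 of them did and in males (-0.72) 5. A difference between the lines was not called (joint edgeR adjusted p = 0.309). Ndufa4 had the highest level per length among the genes with a complex I name (95.8 CPM per kilobase, against a median of 17.9). It ranged from 20.4 to 42.8 CPM (median 40.2) in differentiated libraries, against 57.5 to 117 CPM (median 82.7) in undifferentiated ones (-1.17 ± 0.16, edgeR adjusted p = 1.06e-05). Of the genes not called, Ndufa2 (0.42 ± 0.20, edgeR adjusted p = 0.0695) and Ndufs3 (0.33, edgeR adjusted p = 0.0555) had the highest fold changes.

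In complex II, Sdhc, a membrane anchor, ranged between 29.1 and 43.6 CPM in differentiated libraries, against 44.1 and 59.5 CPM in undifferentiated ones, with no overlap (-0.53 ± 0.11, edgeR adjusted p = 0.000751). Sdha, the flavoprotein that oxidises succinate, also fell but with overlap (69.1 to 96.8 CPM against 71.8 to 104 CPM; -0.24 ± 0.10, edgeR adjusted p = 0.0447). Sdhb, the iron-sulfur subunit and the highest of the complex per length (33.1 CPM per kilobase), and the second anchor Sdhd were not called, with fold changes of -0.15 ± 0.11 and -0.11 ± 0.14.

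In complex III the core protein gene Uqcrc1 ranged from 48.3 to 73.1 CPM (median 60.9) in differentiated libraries, against 103 to 134 CPM (median 107) in undifferentiated ones. The states did not overlap (-0.88 ± 0.10, edgeR adjusted p = 1.02e-06). Uqcrq stood at 2.13 to 12.5 CPM in differentiated libraries, against 11.0 to 22.8 CPM in undifferentiated ones, with a slight overlap (-1.39 ± 0.23, edgeR adjusted p = 8.39e-05). Uqcr10 stood at 7.44 to 14.7 CPM against 14.0 to 35.9 CPM, again overlapping (-1.25 ± 0.19, edgeR adjusted p = 3.75e-05). Uqcrb, the highest per length (93.4 CPM per kilobase, against a complex median of 44.4), stood at 22.0 to 43.2 CPM against 47.9 to 92.5 CPM without overlap (-1.06 ± 0.17, edgeR adjusted p = 4.94e-05). Uqcrh, the hinge protein, was not called over the lines (0.10 ± 0.11). It was called higher in WT females (33.1 and 33.7 CPM in differentiated, 23.6 and 21.9 CPM in undifferentiated cells; 0.55 ± 0.20, edgeR adjusted p = 0.0329), but this held in 5 of the 12 leave-one-out fits. The call was lost when any 1 of the 4 undifferentiated female libraries, a differentiated library of WT females or undifferentiated male replicate 1 was dropped. A pseudogene is named after Uqcrh, and reads shared with it could not be assigned.

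The genes counted under complex IV by name held the lowest fold change and both called rises. Of these rises, Cox7a2l is a supercomplex factor and not a subunit in the strict sense. Cox7b, an X-linked subunit, ranged from 9.67 to 32.1 CPM (median 27.3) in differentiated libraries, against 49.6 to 126 CPM (median 102) in undifferentiated ones. It had the lowest fold change of the 80 genes (-1.95 ± 0.14, edgeR adjusted p = 7.58e-09), with calls in all 3 lines and in each of the 12 leave-one-out fits. Cox7c, a small nuclear-encoded subunit, ranged from 7.12 to 22.8 CPM (median 15.0), against 26.9 to 54.9 CPM (median 43.9), without overlap (-1.56 ± 0.17, edgeR adjusted p = 1.3e-06). Cox5a, a subunit on the matrix side, ranged from 9.87 to 18.3 CPM (median 16.4), against 26.4 to 46.7 CPM (median 36.6), also without overlap (-1.19 ± 0.16, edgeR adjusted p = 1.04e-05). Of the calls in single lines, that of Cox7c was lost in RlimKO cells without undifferentiated RlimKO replicate 2 and in WT females without differentiated WT female replicate 1, and that of Cox5a in RlimKO cells without undifferentiated RlimKO replicate 1 or differentiated RlimKO replicate 2. Low expressed genes of the group carried wider errors, as in Cox7a1 (0.244 to 2.79 CPM, against 1.58 to 3.81 CPM).

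Among the alternative forms of complex IV subunits the general Cox4i1 fell and Cox4i2 rose. Cox4i1 (chr8:120668222-120674207), the general form of the regulatory subunit 4 and the highest of the complex per length (180 CPM per kilobase, against a median of 39.9), stood at 112 and 105 CPM in differentiated RlimKO cells, 108 and 105 CPM in differentiated WT females and 89.3 and 61.0 CPM in differentiated males. In undifferentiated cells it stood at 221 and 213 CPM in RlimKO, 202 and 204 CPM in WT females and 122 and 108 CPM in males. It fell in each line (-0.85 ± 0.10 over the lines, edgeR adjusted p = 2.05e-06), although undifferentiated male replicate 2 lay among the differentiated females and the call in males was lost without undifferentiated male replicate 1 or differentiated male replicate 2. Its exons overlap those of Cox4nb (chr8:120653914-120668573) on the other strand, and strand was not separated. Cox4i2 (chr2:152754173-152765037), the form known to be favoured in lung and at low oxygen, rose. It had 2 and 7 counts in differentiated RlimKO cells, 14 and 18 in differentiated WT females and 6 and 36 in differentiated males, against 0 and 0, 0 and 1, and 2 and 1 counts in the undifferentiated cells of the same lines. In CPM the states did not overlap (1.06 to 4.77 against 0 to 0.743, edgeR adjusted p = 0.000619). By line, the ratio of the summed counts at equal depth was at least 2.04-fold in RlimKO cells, 14.5 in WT females (95% interval 2.42 to 590) and 7.41 in males (2.37 to 37.4), intervals that cover counting error only. Even after this rise Cox4i2 stood at 3.29 CPM per kilobase in differentiated cells, against 126 CPM per kilobase of Cox4i1. The call over the lines was kept in all 12 leave-one-out fits, those in RlimKO cells, WT females and males in 3, 10 and 7.

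Cox7a2l was the other called rise. It stood at 57.9 and 51.9 CPM in differentiated RlimKO cells, 48.1 and 47.2 CPM in differentiated WT females and 46.1 and 74.9 CPM in differentiated males. Undifferentiated cells had 39.7 and 49.4 CPM in RlimKO, 30.5 and 34.3 CPM in WT females and 28.2 and 40.6 CPM in males. The states overlapped slightly, and the change was 0.55 ± 0.14 (edgeR adjusted p = 0.00282), called in all 12 fits. Its paralogue Cox7a2, the general form of subunit 7a, was called lower over the lines (-0.33 ± 0.14, edgeR adjusted p = 0.0489) but in 4 of the 12 fits, while in males it fell to 11.3 and 15.4 CPM in differentiated cells, against 31.9 and 30.2 CPM in undifferentiated ones (-1.20 ± 0.23, edgeR adjusted p = 0.000514). Cox7a2 was called in neither female line. Its change exceeded that in males by 1.44 ± 0.34 in WT females (edgeR adjusted p = 0.05004) and by 1.18 ± 0.34 in RlimKO cells (edgeR adjusted p = 0.0807). Neither difference was called, nor was the joint test of the 3 lines (edgeR adjusted p = 0.0521). The muscle form Cox7a1 was called lower over the lines as well (-1.35 ± 0.53, edgeR adjusted p = 0.0327), though the call was kept in 6 of the 12 fits and DESeq2 did not make it. Cox8a, the general form of subunit 8, fell (18.4 to 29.8 CPM against 26.3 to 60.8 CPM, overlapping; -0.79 ± 0.15, edgeR adjusted p = 0.000328), while its muscle form Cox8b and its testis form Cox8c had too few counts to test. Cox6a1, the general form of subunit 6a, fell by 0.31 on the log2 scale (edgeR adjusted p = 0.0199), a call lost without differentiated RlimKO replicate 1, and the general Cox6b1 was not called (-0.21 ± 0.13). Its testis form Cox6b2 stood at 1.95 to 7.52 CPM, against 2.34 to 11.9 CPM (-0.88 ± 0.34, edgeR adjusted p = 0.0316), and was called in 7 of the 12 fits.

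**Figure D3:**
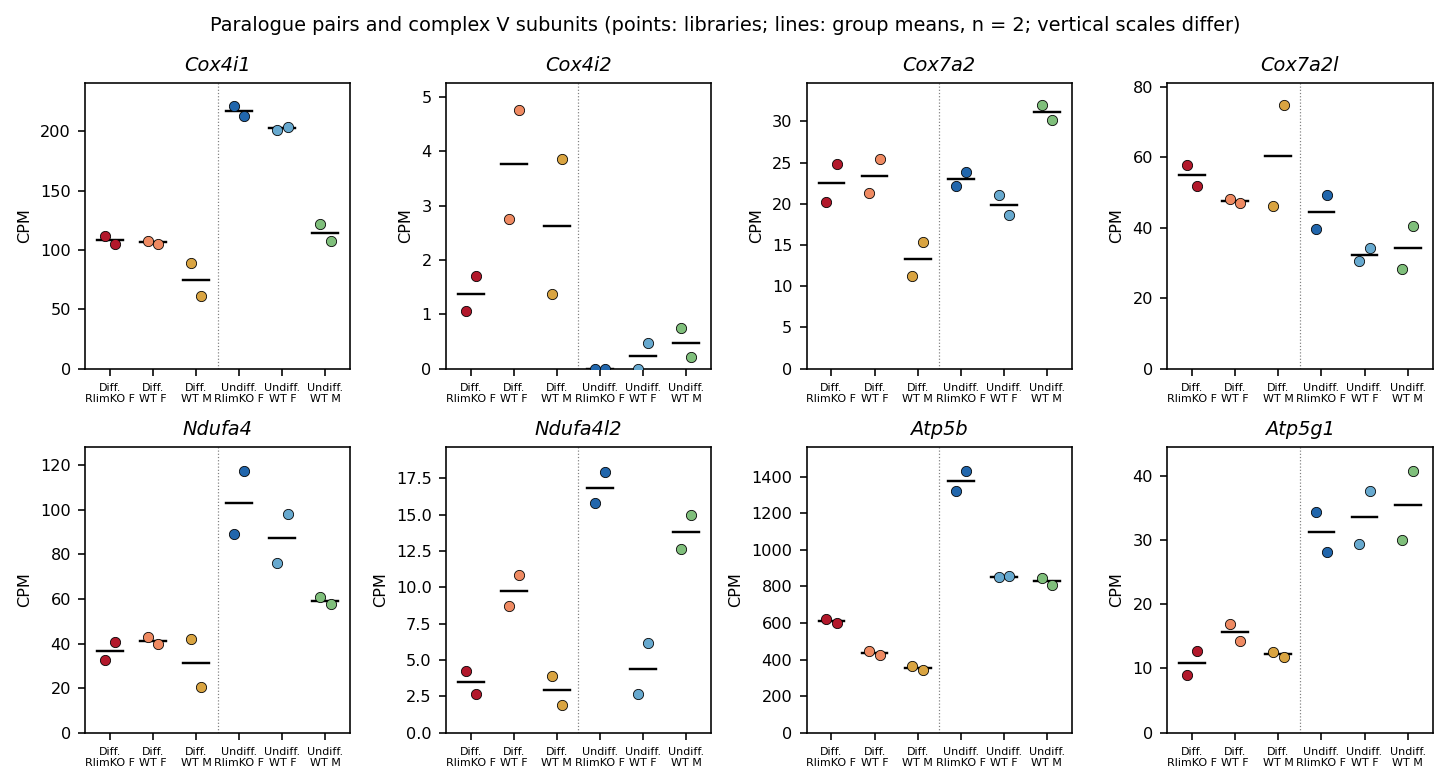
Level (vertical axis, CPM; scales differ between panels) of paralogue pairs and of 2 complex V genes in each library (points) and as group means (lines, n = 2), with differentiated groups left of the dotted line. Cox4i2 lay between 1.06 and 4.77 CPM in differentiated libraries and between 0 and 0.743 CPM in undifferentiated ones, while Cox4i1, Ndufa4, Atp5b and Atp5g1 were lower after differentiation.

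In complex V the genes of the alpha and beta subunits, which form the catalytic head, fell in every line. Atp5b, the beta subunit, had 388 CPM per kilobase, against a median of 39.6 for the complex. It stood at 622 and 598 CPM in differentiated RlimKO cells, 447 and 424 CPM in differentiated WT females and 365 and 344 CPM in differentiated males. Undifferentiated cells had 1323 and 1433 CPM in RlimKO, 849.6 and 856 CPM in WT females and 848 and 809.7 CPM in males. The states did not overlap (-1.12 ± 0.08, edgeR adjusted p = 6.53e-09). Atp5a1, the alpha subunit, ranged from 259 to 329.9 CPM (median 280.2) in differentiated libraries, against 399.6 to 532 CPM (median 501) in undifferentiated ones (-0.78 ± 0.09, edgeR adjusted p = 1.4e-06), and it overlaps Haus1 on the other strand. The membrane ring subunit c is made from 3 genes that differ only in their targeting peptides. Atp5g1 stood at 9.03 to 17.0 CPM in differentiated libraries, against 28.1 to 40.8 CPM in undifferentiated ones (-1.37 ± 0.15, edgeR adjusted p = 1.17e-06), kept in all 12 fits. Atp5g2 changed by -0.31 ± 0.12 (edgeR adjusted p = 0.0291, called in 8 of the 12 fits), and Atp5g3 was not called (-0.05 ± 0.18). Whether the 3 differ in their response was not tested.

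The fall was seen in each line, and the lines are separate sets of libraries. In differentiated RlimKO cells 27 subunit genes were lower and 2 higher than before (21.6% and 26.4% of all tested genes), with a median log2 fold change of -0.45. In WT females 18 were lower and 3 higher (22.2% and 26.5% of all tested genes), with a median of -0.32, and in males 42 were lower and 2 higher (25.4% and 28.7% of all tested genes), with a median of -0.65. The WT female count came close to that of all genes in its share of lower calls. It moved with the libraries: 12 were called in either direction without differentiated WT female replicate 1, and 33 without either differentiated male library, which share the estimate of spread, against 21 with all libraries (48.7% of all tested genes). A fit of the libraries compared alone called 35 in WT females, and 28 in males against 44 with all libraries (54% of all tested genes). Counts from such altered fits, here and below, stand without the share of all tested genes called in the same fit. They show how the calls moved and not a trait of the subunit genes. In all 3 lines 15 genes were called lower (18.8%, against 14.1% of all tested genes): Ndufa4, Ndufa11, Ndufs1, Ndufv1 and Ndufv2 of complex I, Uqcr10 and Uqcrc1 of complex III, Cox4i1, Cox5a, Cox6c, Cox7b and Cox7c of complex IV, and Atp5a1, Atp5b and Atp5g1 of complex V. In 48 genes the fold change was negative in all 3 lines (60%, against 34.7% of all tested genes), and 0 genes had opposite calls in different lines (0.523% of all tested genes).

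**Figure D4:**
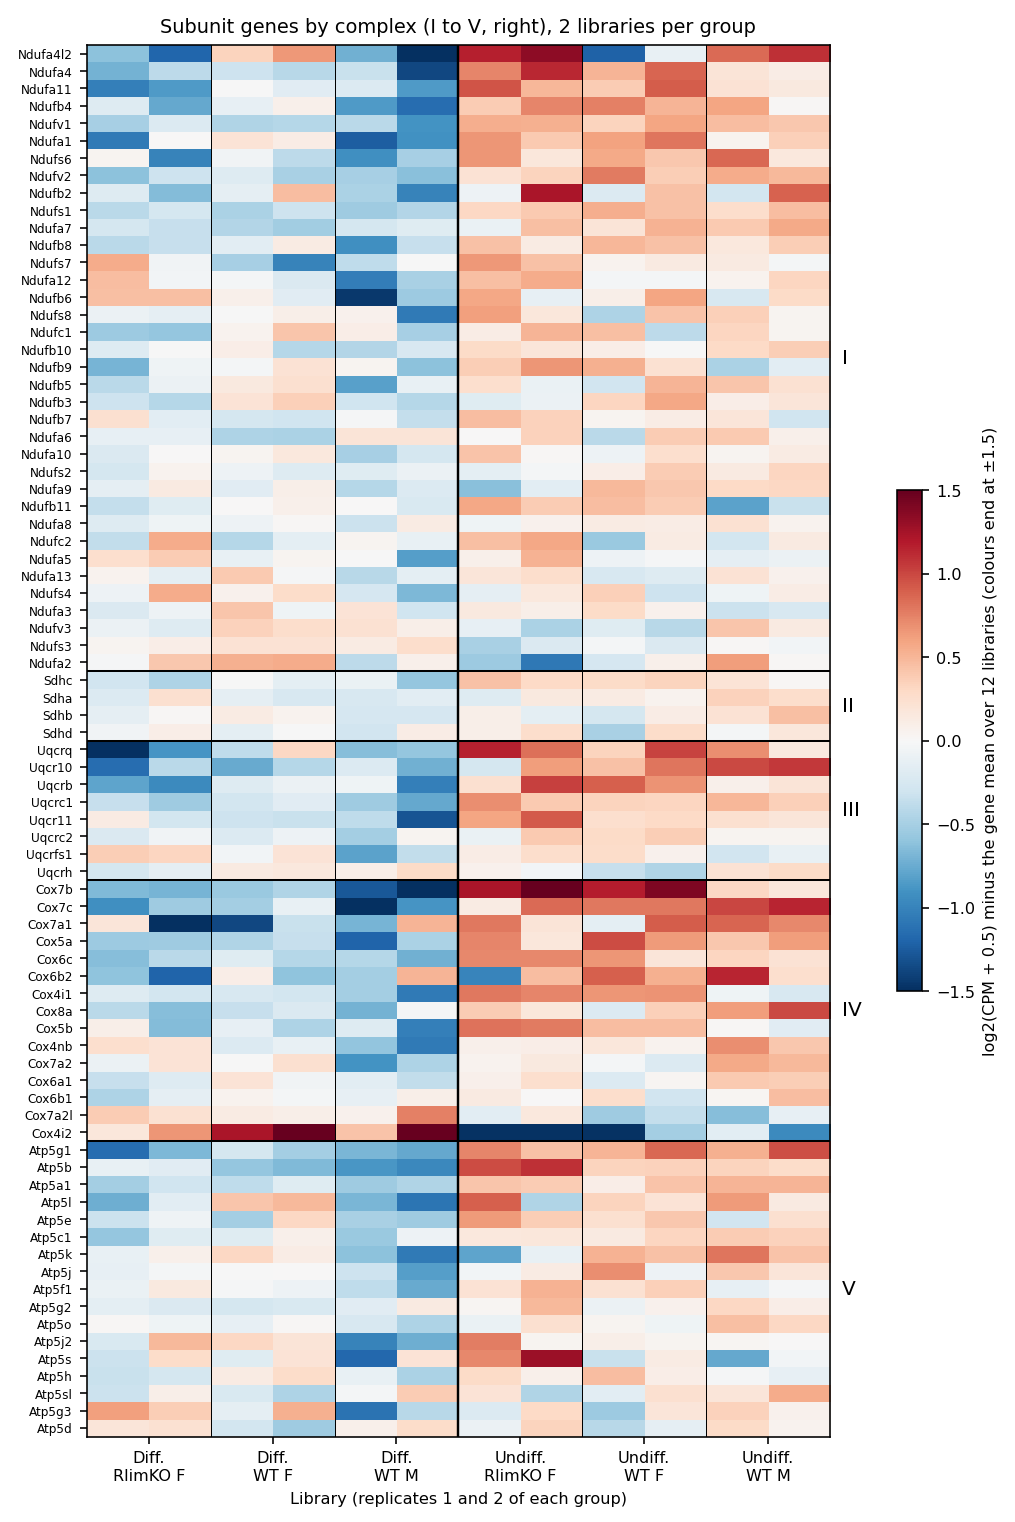
Level of each of the 80 subunit genes (rows, by complex) in each of the 12 libraries (columns), as log2(CPM + 0.5) minus the mean of the gene over the libraries; colours end at ±1.5. Blue on the left and red on the right mark the genes that were lower in differentiated cells, and Cox4i2 and Cox7a2l run the other way.

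Some genes had their largest change in 1 line. Uqcrq fell in RlimKO cells to 2.13 and 5.12 CPM after differentiation, against 22.8 and 17.9 CPM before (-2.33 ± 0.44, edgeR adjusted p = 0.000543). Ndufa2, an accessory subunit of complex I, was called higher in RlimKO cells (11.2 and 15.1 CPM against 7.59 and 5.11 CPM; 1.10 ± 0.38, edgeR adjusted p = 0.0269), in 6 of the 12 leave-one-out fits. Ndufv3, a small subunit of the NADH-oxidising module, was called higher in WT females (36.5 and 34.4 CPM against 25.2 and 21.4 CPM; 0.61 ± 0.22, edgeR adjusted p = 0.0313), in 5 of the 12 fits. In males Cox7c had 7.12 and 13.1 CPM after differentiation, against 49.8 and 54.9 CPM before (-2.32 ± 0.29, edgeR adjusted p = 1.16e-05). A joint test of the difference between the lines called none of these 4 (edgeR adjusted p 0.159 to 0.333).

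The joint test asked whether the change on differentiation differed between the 3 lines, and called 2 of the 80 subunit genes (2.64% of all tested genes). Ndufa4l2 (chr10:127514967-127517154), a paralogue of Ndufa4 known to be induced by low oxygen, stood at 4.25 and 2.68 CPM in differentiated RlimKO cells, 8.68 and 10.9 CPM in differentiated WT females and 3.90 and 1.93 CPM in differentiated males. In undifferentiated cells it stood at 15.8 and 17.9 CPM in RlimKO, 2.63 and 6.20 CPM in WT females and 12.6 and 15.0 CPM in males. It fell in RlimKO cells (-2.35 ± 0.47, edgeR adjusted p = 0.000816) and in males (-2.33 ± 0.42, edgeR adjusted p = 0.000312), while WT females had a positive value that was not called (1.12 ± 0.46, edgeR adjusted p = 0.0591). The difference between the lines had an edgeR adjusted p of 0.0129. It was not called when replicate 1 of the undifferentiated WT females (0.0645), replicate 2 of the undifferentiated males (0.0621) or replicate 2 of the differentiated WT females (0.0597) was dropped. Its exons overlap Shmt2 on the other strand. The second was Cox4nb, which is Emc8 and no subunit. It fell in males, to 17.4 and 12.5 CPM after differentiation, against 43.5 and 35.3 CPM before (-1.41 ± 0.22), and was not called in RlimKO cells (31.9 and 30.7 CPM against 28.0 and 28.6 CPM). Its joint edgeR adjusted p of 0.0326 was lost in each of the 10 leave-one-out fits that kept both differentiated male libraries, with values up to 0.193. The count of 2 was 0 or 1 in those 10 fits, and 11 and 16 without differentiated male replicates 1 and 2.

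Few subunit genes differed between the female lines. In undifferentiated cells 4 of the 80 genes had an unadjusted edgeR p below 0.05, against 1289 of the 12814 tested genes. After adjustment 1 gene was higher in RlimKO than in WT females and 0 were lower (0.101% and 0.14% of all tested genes), and DESeq2 also called 1. This was Atp5b, at 1323 and 1433 CPM in RlimKO cells, against 849.6 and 856 CPM in WT females (0.69 ± 0.13 on the log2 scale, edgeR adjusted p = 0.0466). The groups did not overlap, but the call was kept in 2 of the 12 fits, those without a differentiated male library, and its adjusted p was up to 0.379 in the others. In differentiated cells 0 genes were called by edgeR between RlimKO and WT females (2.59% of all tested genes), and DESeq2 called 1. An unadjusted edgeR p below 0.05 was found for 11 of the 80, against 1872 of the 12814 tested genes. Without either differentiated male library, or in a fit of the 4 libraries alone, 9 were called. The median fold change of RlimKO against WT females was -0.13 in differentiated and 0.06 in undifferentiated cells.

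Set against males, each female line had a few called genes, and both comparisons used the same male libraries. In undifferentiated cells 3 genes were higher in WT females than in males and 1 lower (3.12% and 3.5% of all tested genes), and 4 were higher in RlimKO cells than in males and 0 lower (4.6% and 5.41% of all tested genes). In WT females the higher ones were Cox7b, Ndufb11 and Cox4i1 (0.82 ± 0.17, edgeR adjusted p = 0.0115) and the lower one was Ndufa4l2 (-1.63 ± 0.46, edgeR adjusted p = 0.0469), a call kept in 2 of the 12 leave-one-out fits, those without a differentiated male library, while that of Cox4i1 was kept in 8. In RlimKO cells they were Cox7b, Ndufb11, Cox4i1 (0.92 ± 0.17, edgeR adjusted p = 0.0041) and Atp5b (0.73 ± 0.13, edgeR adjusted p = 0.00338). Of all tested genes 6.63% were called in either direction between undifferentiated WT females and males. The count of 4 there was 1 and 0 when replicates 1 and 2 of the undifferentiated WT females were dropped, 0 and 1 when replicates 1 and 2 of the undifferentiated males were, and 11 without either differentiated male library. The RlimKO count was 2 without undifferentiated male replicate 2 and 17 without either differentiated male library.

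Of the 80 genes, 3 lie on the X chromosome (GENCODE M21 annotation, build GRCm38): Cox7b (chrX:106015700-106022450), Ndufb11 (chrX:20615326-20617619) and Ndufa1 (chrX:37187588-37191163). In differentiated cells Cox7b stood at 27.6 and 27.1 CPM in RlimKO and 29.8 and 32.1 CPM in WT females, against 17.9 and 9.67 CPM in males. It was higher in RlimKO cells by 1.04 ± 0.25 (edgeR adjusted p = 0.0166) and in WT females by 1.22 ± 0.24 (edgeR adjusted p = 0.00701) on the log2 scale. In undifferentiated cells it stood at 104 and 126 CPM in RlimKO and 100.3 and 117 CPM in WT females, against 54.6 and 49.6 CPM in males, higher by 1.15 ± 0.22 (edgeR adjusted p = 0.00522) and 1.06 ± 0.22 (edgeR adjusted p = 0.012). The female libraries were above the male ones in both states, although each of these calls was lost in 2 or 3 of the 12 fits, all without a library of the groups compared. Ndufb11, a membrane arm subunit of complex I, stood at 22.3 and 25.4 CPM in differentiated RlimKO and 29.0 and 30.5 CPM in differentiated WT females, against 28.9 and 24.5 CPM in differentiated males, which was not called in either line. In undifferentiated cells it stood at 43.2 and 37.5 CPM in RlimKO and 39.9 and 37.7 CPM in WT females, against 16.3 and 22.7 CPM in males. There it was higher in RlimKO cells by 1.02 ± 0.22 (edgeR adjusted p = 0.0108) and in WT females by 0.97 ± 0.22 (edgeR adjusted p = 0.0198), calls lost in 2 or 3 of the 12 fits. A difference of the female excess between the states was not called (-1.17 ± 0.31 for RlimKO, edgeR adjusted p = 0.0614, and -0.81 ± 0.30 for WT females, edgeR adjusted p = 0.211). Ndufb11 overlaps Rbm10 on the other strand. Ndufa1, another membrane arm subunit, had lower levels, at 2.66 and 6.10 CPM in differentiated RlimKO and 7.10 and 6.62 CPM in differentiated WT females, against 2.30 and 3.01 CPM in differentiated males. It stood at 9.92 and 8.10 CPM in undifferentiated RlimKO and 9.45 and 11.0 CPM in undifferentiated WT females, against 6.31 and 7.94 CPM in undifferentiated males, and was called in no comparison between lines. On differentiation it fell over the lines (-0.96 ± 0.24, edgeR adjusted p = 0.00263), and Ndufb11 was called lower in RlimKO cells (-0.74 ± 0.22, edgeR adjusted p = 0.0135) but not over the lines (-0.23 ± 0.13).

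**Figure D5:**
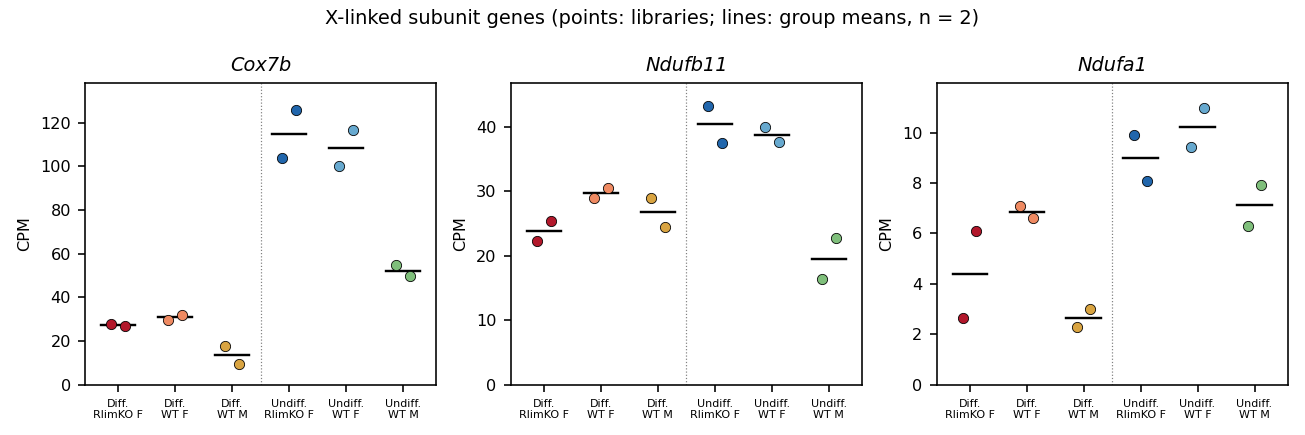
Level (vertical axis, CPM; scales differ between panels) of the 3 X-linked subunit genes in each library (points) and as group means (lines, n = 2), with differentiated groups left of the dotted line. Undifferentiated female libraries of Cox7b lay between 100.3 and 126 CPM and the male ones at 54.6 and 49.6 CPM; for Ndufb11 the female lead was seen before differentiation.

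After differentiation 7 genes were higher in WT females than in males and 0 lower (4.67% and 4.29% of all tested genes), with a median fold change of 0.36. They were Ndufa4l2 (1.81 ± 0.42), Atp5l (1.41 ± 0.37), Cox7b (1.22 ± 0.24), Atp5k (1.12 ± 0.30), Atp5j2 (1.12 ± 0.25), Ndufb4 (1.03 ± 0.29) and Cox7a2 (0.79 ± 0.23), with edgeR adjusted p between 0.00701 and 0.0461. Of these, the call of Cox7a2 was kept in 2 of the 12 leave-one-out fits and that of Atp5k in 5. In RlimKO cells 9 were higher than in males and 0 lower (5.65% and 5.97% of all tested genes), with a median of 0.21: Ndufb6 (1.41 ± 0.40), Atp5g3 (1.19 ± 0.30), Cox4nb (1.08 ± 0.22), Atp5j2 (1.07 ± 0.25), Cox7b (1.04 ± 0.25), Ndufa12 (0.94 ± 0.28), Uqcrfs1 (0.91 ± 0.21), Atp5b (0.78 ± 0.13) and Atp5f1 (0.61 ± 0.17), with edgeR adjusted p between 0.00225 and 0.042. The call of Atp5b was kept in all 12 fits and that of Ndufb6 in 8. The male pair that both were set against is the one whose libraries stood apart. For the altered fits that follow, the share of all tested genes called is not given, so whether the moves are particular to subunit genes was not tested. In WT females 32 and 17 genes were called without differentiated male replicates 1 and 2, 4 when a differentiated RlimKO library was dropped, and 0 when a differentiated library of WT females was dropped or in a fit of the 4 libraries compared. In RlimKO cells 20 and 10 were called without differentiated male replicates 1 and 2, 2 and 1 without differentiated RlimKO replicates 1 and 2, and 0 in a fit of the 4 libraries.

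Other genes of the mitochondrion were read in the same comparison, in which 32.5% of all tested genes fell and 37.2% rose. Of 47 tested large subunit proteins of the mitochondrial ribosome, which translates the subunits encoded in mitochondrial DNA, 32 fell and 0 rose on differentiation averaged over the lines (median log2 fold change -0.69). Mrpl15, for one, ranged from 14.3 to 29.2 CPM in differentiated libraries, against 69.5 to 98.2 CPM in undifferentiated ones (-1.98 ± 0.13, edgeR adjusted p = 2.81e-09), and Mrpl42 and Mrpl40 fell by 1.55 and 1.53 on the log2 scale. Of 27 tested assembly factors 13 fell and 2 rose (median -0.47), among them Ecsit, an assembly factor of complex I, at 3.17 to 8.21 CPM against 13.9 to 21.6 CPM (-1.77 ± 0.19, edgeR adjusted p = 1.12e-06). Lrpprc, which keeps mitochondrial mRNAs stable, also fell (-1.07 ± 0.14, edgeR adjusted p = 8.56e-06), as did the complex I assembly factor Ndufaf4 (-1.63 ± 0.22, edgeR adjusted p = 8.71e-06). Of 22 genes of pyruvate entry and the tricarboxylic acid cycle 11 fell and 2 rose (median -0.33), the X-linked Idh3g of isocitrate dehydrogenase by 1.68 on the log2 scale (SE 0.10, edgeR adjusted p = 2.11e-09). Its partner Idh3a (-1.27) and the pyruvate dehydrogenase gene Pdha1 (-1.12) fell as well. Of 16 tested regulators of mitochondrial biogenesis 7 fell and 2 rose (median -0.50). Esrrb, an estrogen-related receptor that is also one of the stem cell markers, ranged between 6.43 and 28.6 CPM in differentiated libraries, against 249 and 343 CPM in undifferentiated ones (-4.33 ± 0.14, edgeR adjusted p = 3.68e-12), and Gabpa, an ETS factor of respiratory genes, between 33.6 and 50.1 CPM, against 97.7 and 121 CPM (-1.28 ± 0.10, edgeR adjusted p = 2.56e-08). The coactivator Pprc1 also fell (-0.84 ± 0.11, edgeR adjusted p = 7.59e-06). These 3 had the lowest p of the list, and the genes that rose are not among them. Yy1 and Gabpb1, named after their values were seen, had higher group means in differentiated cells of every line at equal depth. Raw counts of Yy1 were 225 and 444 in differentiated RlimKO cells, 478 and 364 in WT females and 257 and 623 in males. In undifferentiated cells they were 140 and 224, 135 and 137, and 122 and 190.

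Of the 7 related genes outside the name pattern 4 fell and 1 rose. Cyc1, cytochrome c1 of complex III, stood at 22.7 to 37.9 CPM in differentiated libraries, against 56.2 to 84.3 CPM in undifferentiated ones (-1.30 ± 0.12, edgeR adjusted p = 1.58e-07). The ADP/ATP carriers of the inner membrane moved in opposite directions. Slc25a5, the form of dividing cells and X-linked, stood at 66.4 and 85.1 CPM in differentiated RlimKO cells, 115 and 110.0 CPM in differentiated WT females and 45.9 and 45.1 CPM in differentiated males. In undifferentiated cells it stood at 448 and 514 CPM in RlimKO, 534 and 582 CPM in WT females and 245 and 222 CPM in males, a change of -2.44 ± 0.09 over the lines (edgeR adjusted p = 1.09e-11) without overlap. Slc25a4, the form of heart and muscle, rose (0.78 ± 0.08, edgeR adjusted p = 8.38e-07), with 120.3 to 194 CPM in differentiated libraries against 52.5 to 129 CPM in undifferentiated ones, which overlapped slightly. Of the cardiac muscle markers 5 of 6 tested rose and 1 fell in the same comparison (summed level 53.1 to 429 CPM in differentiated libraries, against 116 to 204 CPM in undifferentiated ones), and the part of other cell types in these changes was not tested.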

How the data were processed

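Gene counts of 12 libraries (6 groups of 2) were used as the authors deposited them: raw counts of reads per gene, as whole numbers. The submitters' processing notes name HTSeq 0.6.1p1, TopHat2 2.0.12, edgeR 3.10.0, bcl2fastq 2.16.0.10 and the mm10 build. Per the labels' protocols cDNA was made by template switching and cut with a transposase, which does not mark strand, and no molecular identifiers are mentioned, so intervals cover counting error only.

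The 5 summary lines that name no gene (reads in no feature, ambiguous and the like, 46.4% to 53.9% of all counts) were left out. Libraries were scaled by TMM, genes filtered by filterByExpr, and 1 mean per group fitted to all 12 libraries with edgeR 4.0.16 (quasi-likelihood F test, R 4.3.3, limma 3.58.1), with Benjamini-Hochberg adjustment over 12814 genes and calls below 0.05. SE values are of the log2 fold change. CPM are per 1e+06 of TMM-scaled library size, with lengths from GENCODE M21, which placed 97.9% of the symbols. The members and lists were chosen with earlier results of these data known. Genes named were the X-linked ones, the alternative forms, per comparison the 4 largest called rises and falls without overlap, the highest per length of each complex, the 2 lowest and 2 highest fold changes over the lines above 10 CPM, and the 3 lowest p of each other list; others were chosen after their values were seen. Counts with known changes were simulated with the same spread for all genes and libraries. On these the mean over the lines recovered 83.5% of log2 changes of 1 and 100% of those of 2 among 11965 genes. The WT female comparison recovered 24.2% and 86.7% among 11978. The differentiated male pair varied more than the others, so these rates need not hold in the data. With 2 libraries against 2 an exact permutation test cannot go below p = 0.33, so none was used for single values.

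Alternatives were RLE scaling, removal of Rn45s and Lars2, no filter, a filter at a mean of 10 CPM, the replicate number as a block, DESeq2 1.42.0, the libraries compared alone, each library dropped in turn and, chosen after seeing the data, differentiated RlimKO replicate 1 and differentiated male replicate 2 (the extremes of Rn45s share) dropped together. Promoter sequences came from RefSeq.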

Additional observations from a re-analysis of the deposited data

Results flagged for a closer look

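The change on differentiation of 3 genes differed between at least a pair of lines by a test of the difference itself. The joint test called 2 of the 80 (2.64% of all tested genes). For RlimKO minus WT females 0 were higher and 1 lower, against 8 and 18 of the 12814 tested genes. For WT females minus males the counts were 1 and 0, against 113 and 65. For RlimKO minus males they were 2 and 0, against 194 and 140. For Ndufa4l2 the joint test of the 3 lines gave an edgeR adjusted p of 0.0129. Its change was lower in RlimKO cells than in WT females by a difference of -3.47 ± 0.66 on the log2 scale (edgeR adjusted p = 0.0492), and higher in WT females than in males by 3.44 ± 0.62 (edgeR adjusted p = 0.0168). This was lost, with values from 0.0647 to 0.1105, when either undifferentiated male library, either differentiated WT female library or replicate 1 of the undifferentiated WT females was dropped. The difference between RlimKO cells and WT females missed the threshold with RLE scaling (edgeR adjusted p = 0.0516) and with the replicate block (0.0589). That threshold was also missed in every leave-one-out fit that kept both differentiated male libraries, where the difference was -4.284 to -3.064. For Cox4nb the joint test gave an edgeR adjusted p of 0.0326, and the change in RlimKO cells exceeded that in males by 1.55 ± 0.32 (edgeR adjusted p = 0.0203, up to 0.126 when a library was dropped). The change of Atp5k in RlimKO cells exceeded that in males by 1.93 ± 0.46 (edgeR adjusted p = 0.0406). The threshold was missed with RLE scaling (edgeR adjusted p = 0.0506) and without Rn45s and Lars2 (0.0521). It was also missed in every leave-one-out fit that kept both differentiated male libraries, where the difference was 1.541 to 2.245. The joint test of the 3 lines did not call Atp5k (edgeR adjusted p = 0.0678). Atp5k, a small subunit of complex V, stood at 10.6 and 12.2 CPM in differentiated RlimKO cells and 7.35 and 5.26 CPM in differentiated males, against 6.42 and 10.7 CPM in undifferentiated RlimKO cells and 20.4 and 15.7 CPM in undifferentiated males.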

How the results depend on the processing

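Averaged over the lines, the count of called subunit genes (51) stayed within 1.5 times under every alternative run, as did that in RlimKO cells (29). Of 98 called values of named genes followed through the alternatives (71 with the libraries compared alone and 83 under the stricter filter), none was reversed. DESeq2 lost 21, the libraries compared alone 19, RLE scaling 4 and the replicate block 2, and dropping 1 library lost 2 to 23, the most without differentiated WT female replicate 1. The members' median log2 fold change over the lines lay between -0.45 and -0.39 under the scalings, while that of all genes was 0.07 with TMM, 0.08 with RLE and 0.00 without Rn45s and Lars2. The cause of the following moves was not tested. Their counts stand without the share of all tested genes called in the same fit, and show only how the calls moved. With the libraries compared alone, the count was 35 on differentiation in WT females and 28 in males; between lines it was 9 and 2 for RlimKO against WT females (differentiated and undifferentiated), 0 and 10 for WT females against males, and 0 and 15 for RlimKO against males. Without a filter it was 3 and 2 for RlimKO against WT females, 8 for undifferentiated RlimKO against males and 6 in the joint test. DESeq2 called 1 gene between differentiated RlimKO and WT females, and 4 between differentiated WT females and males. Leaving out Rn45s and Lars2 gave 7 for undifferentiated RlimKO against males. With both libraries of extreme Rn45s share dropped, the count was 33 on differentiation in WT females, 3 and 3 for RlimKO against WT females, 17 and 11 for WT females against males, 17 for undifferentiated RlimKO against males and 15 in the joint test. With the replicate block the undifferentiated RlimKO against WT female count was 0; same-numbered libraries correlated at -0.067 to 0.101, so the numbers were not taken as pairs.

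With 1 library dropped at a time, which leaves a group with 1 library assumed to vary like the others, counts ranged from 37 to 55 over the lines, 12 to 33 in WT females, 20 to 38 in RlimKO cells and 31 to 46 in males. Between lines (differentiated, then undifferentiated) they ranged from 0 to 9 and 0 to 3 for RlimKO against WT females, 0 to 32 and 0 to 11 for WT females against males, and 1 to 20 and 2 to 17 for RlimKO against males, and from 0 to 16 in the joint test. Low counts limit Cox4i2 and Cox7a1, with 87 and 89 counts in all.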
